A study of Mus musculus with 8 samples.

Results

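The suppressors of cytokine signalling (SOCS) are a family of intracellular feedback inhibitors with 8 members in the mouse, Cish and Socs1 to Socs7. The 8 genes were taken by name, not by their values, from a table of 39017 Ensembl gene identifiers, and all 8 were among the 18952 genes with enough counts to be tested. They were measured by poly(A) RNA sequencing in mouse embryonic fibroblasts (MEFs), connective tissue cells grown here from E13.5 embryos. Control total RNA and knockout total RNA came from unstressed control and Mettl3-knockout cells. Control granule and knockout granule RNA came from the same 2 genotypes after exposure to the oxidant sodium arsenite (500 µM, 30 min), and was a pool enriched for stress granules by centrifugation. Mettl3 is the methyltransferase that places N6-methyladenosine (m6A) on mRNA. Its gene was removed with a 4-hydroxytamoxifen-dependent Cre recombinase (500 nM drug, 48 h), and the absence of protein and of m6A was examined 7 days later. The promoter that drives Cre, and whether control cells received the drug, are not given in the sources used here. Each of the 4 groups held 2 biological replicates. Whether these came from separate embryos or cultures is not stated, so p-values measure the spread between these libraries.

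SOCS proteins bind phosphorylated receptors or Janus kinases (JAKs) through an SH2 domain, and through a C-terminal SOCS box they recruit elongins and a cullin-RING ubiquitin ligase. Cish, Socs1, Socs2 and Socs3 are induced by STAT transcription factors downstream of cytokine receptors and close a negative feedback loop, and Socs4 to Socs7 are mostly linked to receptor tyrosine kinases and insulin receptor substrates. Their mRNAs are short-lived, and in T cells several of them have been described as m6A-marked transcripts that decay more slowly without Mettl3. Stress granules are cytoplasmic assemblies of untranslated mRNAs that form when translation initiation is blocked, which arsenite does.

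The letters GGACT, a common form of the motif methylated by the Mettl3 complex, are shown for Socs2 and Socs5, the members with the largest called differences below. Each line gives 25 bases of the mRNA strand, 5′ to 3′, from the longest protein-coding transcript in GENCODE M21 (build GRCm38), with GGACT in capitals. Socs2 lies on the minus strand of chromosome 10, from 95385362 to 95417180. Its transcript held 3 matches, at chr10:95416672-95416676 in the 5′ UTR and at chr10:95412809-95412813 and chr10:95412708-95412712 in the coding sequence, and none in the 3′ UTR.
Socs2 5′ UTR: gtgcgcgccgGGACTccaggcgcgc
Socs2 coding, upstream: ccacggaatgGGACTgttcacctgt
Socs2 coding, downstream: tacgatctggGGACTgcctttacca

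Socs5 lies on the plus strand of chromosome 17, from 87107679 to 87137839. Its transcript held 4 matches. There were 3 in the coding sequence, at chr17:87133835-87133839, chr17:87134851-87134855 and chr17:87134866-87134870, and 1 in the 3′ UTR, at chr17:87136347-87136351.
Socs5 coding, upstream: cttacagctgGGACTgagcccttcc
Socs5 coding, middle: tcttgctcagGGACTctgcacagga
Socs5 coding, downstream: ctgcacaggaGGACTacctcttctc
Socs5 3′ UTR: ttctcgtgttGGACTgtgttcccgg

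Matches to GGACT were found in all 8 members, as in 91.8% of 15380 tested protein-coding genes, whose median was 3 matches. Socs1 had 1 match, Socs4 had 2, Socs2 and Socs3 had 3 each, Socs5, Socs6 and Cish had 4 each, and Socs7 had 9. Per kilobase of transcript, Socs4 had 0.291 and Socs1 0.344, under the median of 1.06 over all genes, while Cish had 1.40 and Socs2 1.35. The family therefore spanned both sides of the typical density, and a match in sequence does not show that the site is methylated, since no m6A map was used here.

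STAT proteins bind inverted repeats of the form TTCNNNGAA. Among the RefSeq promoter windows of GRCm38.p6 (250 bases before to 50 after a gene start), 4 of the 8 members had an entry, and 8.3% of 32851 such windows held TTCNNNGAA, which reads the same on both strands. Cish held 2 matches and Socs3 held 1, and Socs1 and Socs4 held none of these letters in this window. Both stretches are printed with the match in capitals because these promoters are textbook STAT targets. The Cish stretch is on the plus strand at chr9:107296654-107296683 and the Socs3 stretch on the minus strand at chr11:117969502-117969531, 5′ to 3′ on the strand of the gene.
Cish promoter: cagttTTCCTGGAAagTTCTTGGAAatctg
Socs3 promoter: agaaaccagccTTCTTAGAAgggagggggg

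Total counts ranged from 67257220 to 123508539 per library, and 3 counts in the smallest library corresponded to 0.0441 CPM (counts relative to library size, scaled by edgeR's trimmed mean of M-values). Mettl3 was read at 25.4 and 24.9 CPM in control total and 6.005 and 7.35 in knockout total RNA, a log2 difference of -1.91 (SE 0.267, edgeR adjusted p = 0.0345), and at 15.7 and 15.4 CPM in control granule and 5.56 and 6.38 in knockout granule RNA, -1.38 (SE 0.263, edgeR adjusted p = 0.0208). The labels of genotype thus matched the targeted gene in every library, though 18.4% of the exonic bases of Mettl3 overlap another annotated gene. Fibroblast markers summed to 3509 to 7952 CPM per library, mostly from collagens and Vim, with Pdgfra at 1.39 to 3.47 CPM. Macrophage and blood markers summed to 67.7 to 105 CPM, with Ptprc at 16.7 to 41.8 CPM. Markers of endothelium (6.49 to 20.8 CPM) and skeletal muscle (1.70 to 5.88 CPM) were low, those of neurons reached 40.2 CPM, mostly Tubb3, and those of epithelium 744 CPM, nearly all Krt18, with Epcam at most 1.61 CPM. In such bulk libraries, fewer cells of a type and less RNA per cell cannot be told apart.

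The replicates of knockout total RNA stood apart from each other. Over 10261 genes at 5 CPM or more, the replicates differed by a median of 0.813 log2 units in knockout total and 0.312 in control total RNA, against 0.101 in control granule and 0.135 in knockout granule RNA. Across those genes the replicate ratio followed GC content, with a Spearman correlation of -0.734 in knockout total and 0.764 in control total RNA, a description over genes of single library pairs. The SOCS genes followed the same order. Socs1, at 58.8% GC, was 2.98 log2 units lower in replicate 1 than in replicate 2 of knockout total RNA, with ratios of -1.43 for Socs3 (58.7% GC), -1.87 for Cish (56.4%) and -0.86 for Socs7 (53.8%). Socs4 (38.5% GC) and Socs6 (39.9%) went the other way, with ratios of 0.76 and 0.62. Socs5 and Socs2, near the median GC of 50.5%, had ratios of -0.39 and 0.10, so their knockout total values were the closest between replicates. Mitochondrially encoded genes took 7.60% of counts in replicate 1 of knockout total and 6.16% and 8.81% in knockout granule RNA, against 0.59% to 0.881% in the other 5 libraries. What set these library properties, and their part in the results, was not tested.

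**Figure D1:**
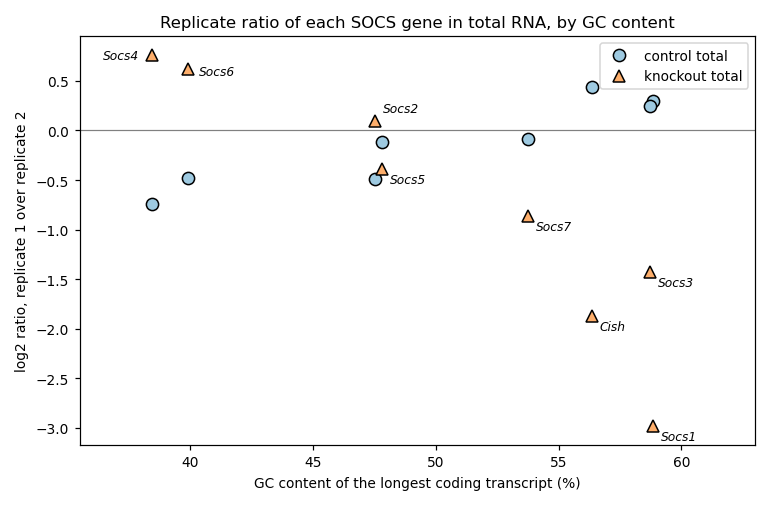
Log2 ratio of replicate 1 over replicate 2 (y axis) against GC content of the longest coding transcript in percent (x axis) for the 8 SOCS genes in control total (circles) and knockout total RNA (triangles, named). The knockout total ratios run from 0.76 for Socs4 to -2.98 for Socs1 as GC content rises, and the control total ratios run the other way over a narrower range.

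Among the classical cytokine-induced members, Cish, which competes with STAT5 at receptors, was the least abundant in all groups but knockout granule RNA. It stood at 2.74 and 2.02 CPM in control total, 3.15 and 3.96 in control granule, 1.35 and 4.94 in knockout total and 7.86 and 5.96 in knockout granule RNA. Its highest values were those of knockout granule RNA, above every control library, while the 2 knockout total libraries enclosed all control values. The counts of Cish are uncertain in part, since 11.5% of its exonic bases overlap Gm17040 and Gm17041 on the opposite strand and whether counting used strand is not given in the sources used here.

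Socs1, the inhibitor of JAK kinases that restrains interferon signalling, was read at 14.1 and 11.5 CPM in control total, 5.25 and 6.04 in control granule, 2.38 and 18.8 in knockout total and 5.69 and 4.58 in knockout granule RNA. Its granule values lay close together in both genotypes and below both control total values. The 2 knockout total values were the lowest and the highest of the series.

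Socs2, which turns off growth hormone receptor signalling, was read at 21.3 and 29.9 CPM in control total, 18.8 and 16.7 in control granule, 48.3 and 45.1 in knockout total and 97.5 and 78.0 in knockout granule RNA. Both knockout libraries were above both control libraries in total RNA, as in 24.4% of all tested genes, and in granule RNA, as in 40.4%. The granule fraction was below total RNA in control cells, as in 37.3% of all tested genes, and above it in knockout cells, as in 31.5%.

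Socs3, the inhibitor of gp130 and interleukin-6 family signalling, was read at 29.6 and 25.0 CPM in control total, 83.8 and 83.0 in control granule, 11.9 and 32.2 in knockout total and 50.1 and 40.2 in knockout granule RNA. The granule values exceeded the total values in control cells, as in 35.2% of all tested genes, and in knockout cells, as in 31.5%. The control granule values were the highest. The knockout total values again enclosed those of control total RNA.

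Among the members linked to receptor tyrosine kinases, Socs4 was read at 10.2 and 17.1 CPM in control total, 32.7 and 30.8 in control granule, 31.8 and 18.7 in knockout total and 44.5 and 58.9 in knockout granule RNA. Socs5, which acts on the epidermal growth factor receptor and JAK1, was read at 30.5 and 33.1, 102 and 98.3, 36.1 and 47.5, and 75.7 and 72.9 CPM in the same order of groups. In both, the control granule values lay above the control total values without overlap, as in 35.2% of all tested genes.

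Socs6 was read at 17.9 and 25.0 CPM in control total, 60.2 and 57.2 in control granule, 54.4 and 35.4 in knockout total and 65.8 and 66.6 in knockout granule RNA. Control total RNA was low and the other 3 groups higher. Socs7, which like Socs6 binds insulin receptor substrates, was read at 61.2 and 64.9, 54.4 and 47.0, 34.1 and 62.0, and 59.1 and 69.3 CPM in the same order, the smallest ratio between highest and lowest group mean of the 8.

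**Figure D2:**
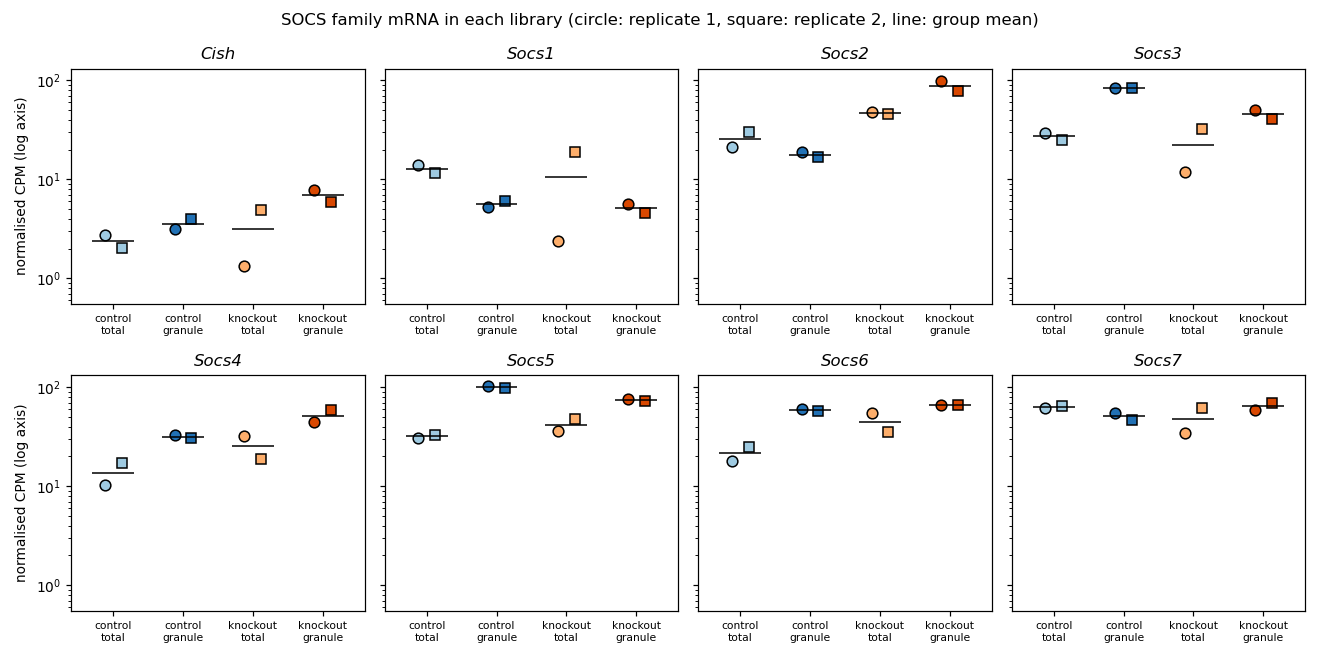
Normalised CPM (y axis, logarithmic) of each SOCS gene in each library, with 1 panel per gene, 1 column per group, a point per replicate and a bar at the group mean. Socs2 is at 45.1 to 97.5 CPM in the knockout and 16.7 to 29.9 CPM in the control libraries. Socs5 is at 98.3 to 102 CPM in control granule against 30.5 to 33.1 CPM in control total RNA.

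Levels of different genes were compared as CPM per kilobase of the longest coding transcript. In control total RNA the order was Socs2 (11.5 ± 2.75, SD, n = 2), Socs3 (10.7 ± 1.27), Socs7 (8.98 ± 0.373), Socs5 (6.84 ± 0.401), Socs1 (4.40 ± 0.630), Socs6 (3.56 ± 0.834), Socs4 (1.98 ± 0.709) and Cish (0.834 ± 0.178), and the libraries of Socs2 and Socs3, and of Socs1 and Socs6, overlapped. In control granule RNA, Socs3 (32.7 ± 0.232) and Socs5 (21.6 ± 0.618) led, without overlap with each other or with Socs6 (9.73 ± 0.348), and Socs1 (1.94 ± 0.191) and Cish (1.25 ± 0.203) came last. In knockout granule RNA the order began with Socs2 (39.5 ± 6.20), which did not overlap Socs3 (17.7 ± 2.73), and Socs3 overlapped Socs5 (16.0 ± 0.415). In knockout total RNA, Socs2 (21.0 ± 1.001) was apart from Socs5 (8.99 ± 1.72), while Socs5, Socs3, Socs6 and Socs7 each overlapped the next, as did Socs4, Socs1 and Cish. The place of Socs2 depends on the transcript used: per kilobase of all its annotated exons together, Socs3 ranked 1 in every group and Socs2 ranked 5, 7, 4 and 3 in control total, control granule, knockout total and knockout granule RNA.

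The comparison of control granule with control total RNA asks which of these mRNAs were over-represented in the granule-enriched pool of normal cells. Stress and fraction change together between these groups and cannot be told apart. Socs5 was 100.3 ± 2.87 CPM in granule and 31.8 ± 1.86 CPM in total RNA (SD, n = 2), a log2 difference of 1.66 (SE 0.257, edgeR adjusted p = 0.0121). Socs6 was 58.7 ± 2.10 and 21.5 ± 5.04 CPM, a log2 difference of 1.45 (SE 0.307, edgeR adjusted p = 0.0284). These 2 of the 8 members were called higher and none lower, where called means an adjusted p under 0.05 over all genes, and 10.1% of all tested genes were called (5.89% higher, 4.17% lower).

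The other granule to total differences in control cells did not pass the test. Socs3 was 1.61 log2 units higher (SE 0.441, edgeR adjusted p = 0.0564) and Socs4 1.22 higher (SE 0.373, edgeR adjusted p = 0.074). Cish differed by 0.58 (SE 0.553), Socs7 by -0.31 (SE 0.322), Socs2 by -0.53 (SE 0.278) and Socs1 by -1.18 (SE 0.754). The libraries of the groups did not overlap for any of the 8, with 5 higher and 3 lower in granules, but 72.4% of all tested genes were without overlap too (35.2% higher, 37.3% lower). The median of the 8 log2 differences was 0.90, against -0.06 over all tested genes. Summed cell type markers, given as the lower and the higher library of each group, moved between these groups as well. From control total to control granule RNA epithelial markers went from 233 and 364 to 687 and 744 CPM and fibroblast markers from 4583 and 5784 to 6286 and 6341. Within the fibroblast list, by replicate, Vim (2276 and 1684 to 3196 and 3437 CPM) and S100a4 (275 and 227 to 525 and 686 CPM) were higher. Col3a1 (303 and 266 to 148 and 119 CPM), Pdgfra, Pdgfrb and Thy1 were lower, and Col1a1 and Col1a2 overlapped. Skeletal muscle markers overlapped, at 3.29 and 5.88 against 1.70 and 3.43 CPM. Neural markers went from 29.8 and 40.2 to 5.70 and 6.15 CPM, endothelial markers from 13.9 and 15.3 to 6.49 and 8.70, and macrophage and blood markers from 81.2 and 105 to 67.7 and 76.7. Their part in the SOCS values was not tested.

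The call of Socs6 was lost with the GC trend of each library removed, where its difference was 0.46 (edgeR adjusted p = 0.137), and that of Socs4 was 0.13 (adjusted p = 0.708), while there Socs5, Socs3 (edgeR adjusted p = 0.00106) and, on the lower side, Socs2 (-0.68, edgeR adjusted p = 0.0484) were called, beside 3818 of 18952 genes. The 2 calls were both lost without either control granule or either control total library, where few or no genes at all were called. There Socs5 stayed between 1.61 and 1.76 log2 units and Socs6 between 1.23 and 1.75. Without knockout total replicate 1 there were 6 and without replicate 2 there were 5 members called, but then 8118 of 19981 and 8040 of 20129 genes were called too. Without knockout granule replicate 1 or replicate 2, Socs5 stood at 1.70 or 1.67 and Socs6 at 1.49 or 1.46. Only Socs5 kept its call there, and fewer genes of any kind were called than with all 8 libraries.

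In knockout cells the same comparison, of knockout granule with knockout total RNA, called none of the 8 members, where 17.6% of all tested genes were called (9.17% higher, 8.47% lower). At an unadjusted p under 0.05 edgeR gave 4 members, beside 6510 of all 18952 genes, and DESeq2's Wald test called 3, beside 5091. The log2 differences were 1.14 for Cish (SE 0.554), 1.03 for Socs4 (SE 0.371), 1.03 for Socs3 (SE 0.435), 0.91 for Socs2 (SE 0.279), 0.83 for Socs5 (SE 0.252) and 0.56 for Socs6 (SE 0.302). In these 6 genes both granule libraries were above both total libraries, a pattern that 31.5% of all tested genes shared, while 26.5% were lower without overlap and 58% were without overlap in all. The nearest to the threshold were Socs5 (edgeR adjusted p = 0.0561) and Socs2 (edgeR adjusted p = 0.0574). Socs7 at 0.42 (SE 0.323) and Socs1 at -1.05 (SE 0.752) had overlapping libraries. The median was 0.87 against 0.04 over all tested genes. From knockout total to knockout granule RNA, epithelial markers went from 74.2 and 102 to 538 and 684 CPM, fibroblast markers from 3509 and 3788 to 7366 and 7952, and neural markers from 13.7 and 24.4 to 11.6 and 12.8. Skeletal muscle markers overlapped, at 2.98 and 5.37 against 2.78 and 3.55 CPM. Macrophage and blood markers went from 71.0 and 79.0 to 86.2 and 87.4 CPM, and endothelial markers from 15.6 and 20.8 to 11.1 and 14.8. Their part was not tested. Without knockout total replicate 1 or replicate 2 there were 5 or 6 members called, beside 6802 of 19981 or 9707 of 20129 genes. Socs1 changed its sign without replicate 2 of knockout total RNA, to 0.98 (edgeR adjusted p = 0.0099).

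**Figure D3:**
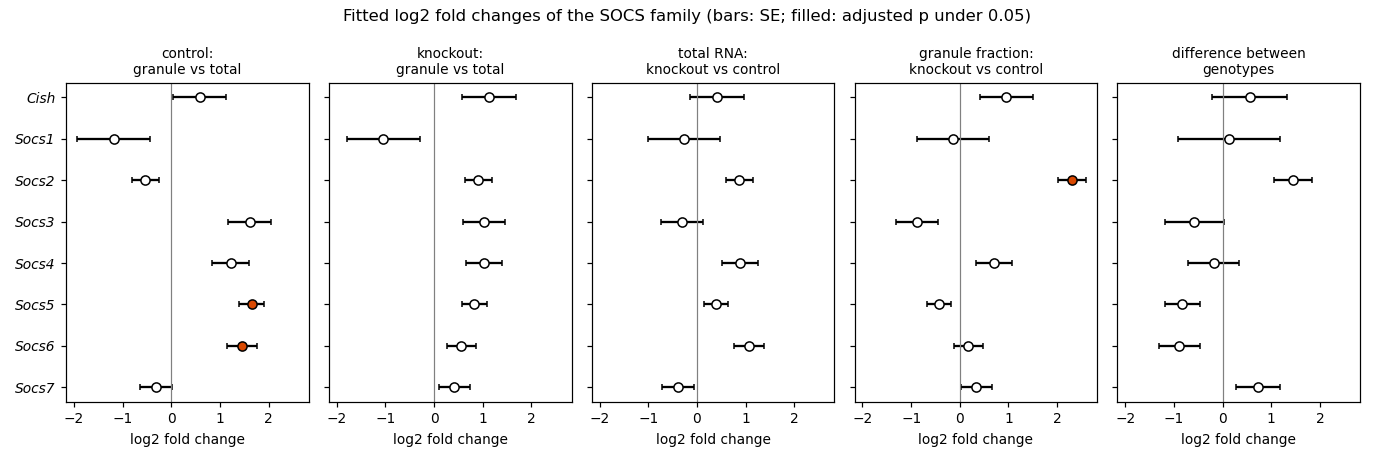
Log2 difference (x axis) of each SOCS gene in the 5 comparisons, 1 panel each, with bars of 1 standard error and filled points for adjusted p under 0.05. The filled points are Socs5 at 1.66 and Socs6 at 1.45 in control granule against control total RNA, and Socs2 at 2.31 in knockout against control granule RNA.

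The comparison of knockout with control granule RNA asks which of these mRNAs differed between genotypes in the granule-enriched pool. Whether control cells received 4-hydroxytamoxifen is not given, so effects of the drug and of Mettl3 loss cannot be told apart. Socs2 was 87.8 ± 13.8 CPM in knockout and 17.7 ± 1.47 CPM in control granule RNA (SD, n = 2), a log2 difference of 2.31 (SE 0.290, 4.95-fold, edgeR adjusted p = 0.0068). It was the 1 member of 8 that was called, where 9.45% of all tested genes were called (5.79% higher, 3.66% lower). The lowest log2 ratio of a knockout to a control library was 2.06 and the highest 2.55. Socs2, whose GGACT matches stand in the sequences above, had the highest granule level per kilobase of coding transcript in knockout cells and the fourth in control cells.

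The 7 other members did not pass the test in granule RNA. Cish differed by 0.96 (SE 0.551), Socs4 by 0.70 (SE 0.369), Socs7 by 0.34 (SE 0.322), Socs6 by 0.17 (SE 0.301), Socs1 by -0.14 (SE 0.746), Socs5 by -0.43 (SE 0.251) and Socs3 by -0.89 (SE 0.433). The libraries were without overlap in 5 members that were higher in knockout cells and in 2, Socs5 and Socs3, that were lower, and 77% of all tested genes were without overlap (40.4% higher, 36.6% lower). The median was 0.26 against 0.08 over all tested genes. Socs3, the most abundant member per kilobase in control granules, and Socs2 therefore lay on opposite sides of the family.

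Socs2 kept a log2 difference between 2.09 and 2.45 under all alternatives. Its call was lost without either control granule library (2.32 and 2.17) or either knockout granule library (2.09 and 2.45), when a single library stood for a group. In those fits no member, and few or no genes at all, were called. Without either knockout total library 5 members were called, beside 7797 of 19981 or 7834 of 20129 genes. With the GC trend removed, 3 members were called, beside 4547 of 18952 genes, and Socs3 differed by -1.15 (edgeR adjusted p = 0.00653). Cell type markers, given as the lower and the higher library of each group, moved in the same comparison. From control to knockout granule RNA skeletal muscle markers overlapped, at 1.70 and 3.43 against 2.78 and 3.55 CPM. The sum of neural markers went from 5.70 and 6.15 to 11.6 and 12.8 CPM, of endothelial markers from 6.49 and 8.70 to 11.1 and 14.8, and of macrophage and blood markers from 67.7 and 76.7 to 86.2 and 87.4. Epithelial markers went from 687 and 744 to 538 and 684 CPM. Fibroblast markers went from 6286 and 6341 to 7366 and 7952 CPM, with Col1a1 higher (1551 and 1249 to 3966 and 3382 CPM) and Vim lower (3196 and 3437 to 1269 and 1354 CPM). Their part, and that of the higher mitochondrial share of these libraries, was not tested.

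In total RNA of unstressed cells, none of the 8 members was called between knockout and control, where 0.412% of all tested genes were called (0.274% higher, 0.137% lower). At an unadjusted p under 0.05 edgeR gave 3 members, beside 4705 of all 18952 genes, and DESeq2's Wald test called 2, beside 2437. Socs6 was 1.06 higher in knockout cells (SE 0.305, edgeR adjusted p = 0.143), Socs4 0.89 (SE 0.370), Socs2 0.87 (SE 0.279, edgeR adjusted p = 0.149) and Socs5 0.40 (SE 0.251). The libraries of these 4 were without overlap, as were those of 24.4% of all tested genes in the same direction, 24.7% in the other and 49.1% in either. Cish at 0.40 (SE 0.553), Socs1 at -0.27 (SE 0.743), Socs3 at -0.31 (SE 0.431) and Socs7 at -0.39 (SE 0.323) had overlapping libraries. These 4 are the GC-rich members whose 2 knockout total libraries differed most. From control to knockout total RNA, epithelial markers went from 233 and 364 to 74.2 and 102 CPM, fibroblast markers from 4583 and 5784 to 3509 and 3788, neural markers from 29.8 and 40.2 to 13.7 and 24.4, and macrophage and blood markers from 81.2 and 105 to 71.0 and 79.0. Endothelial markers went from 13.9 and 15.3 to 15.6 and 20.8 CPM and skeletal muscle markers, which overlapped, from 3.29 and 5.88 to 2.98 and 5.37 CPM. The part of these markers was not tested. Without knockout total replicate 2 there were 6 members called, beside 9627 of 20129 genes, and without replicate 1 there were 0, beside 1102 of 19981. Socs1 and Socs3 changed sign without replicate 1, to 0.56 and 0.24, and Cish without replicate 2, to -0.71.

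Whether the granule to total ratio differed between genotypes was tested as the difference of the 2 ratios. None of the 8 members was called, where 0.517% of all tested genes were called (0.401% higher, 0.116% lower). In this test 2 members had an unadjusted p under 0.05 in edgeR, beside 4898 of all 18952 genes, and DESeq2's Wald test called 1, beside 2724. The difference was 1.44 for Socs2 (SE 0.394, edgeR adjusted p = 0.104), which went from -0.53 in control to 0.91 in knockout cells. It was -0.83 for Socs5 (SE 0.355, edgeR adjusted p = 0.188), from 1.66 to 0.83, and -0.89 for Socs6 (SE 0.427, edgeR adjusted p = 0.225), from 1.45 to 0.56. Passing the test in control and not in knockout cells is therefore not shown to be a difference between genotypes for Socs5 or Socs6 with all 8 libraries. The remaining values were 0.73 for Socs7 (SE 0.456), 0.55 for Cish (SE 0.778), 0.13 for Socs1 (SE 1.05), -0.19 for Socs4 (SE 0.519) and -0.58 for Socs3 (SE 0.609).

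The Socs2 difference between genotypes was not called with median-of-ratios scaling (1.41, edgeR adjusted p = 0.102) or no filter (1.28, edgeR adjusted p = 0.0934). The same held for a replicate block (1.44, edgeR adjusted p = 0.188). Nor was it called without a library of any group but knockout total, where it ran from 1.04 to 1.66. It was called under 4 alternatives. It was 1.41 by DESeq2 (adjusted p = 0.0149), 1.71 with the GC trend removed (edgeR adjusted p = 0.0179), 1.48 without knockout total replicate 1 (edgeR adjusted p = 0.00808) and 1.22 without replicate 2 (edgeR adjusted p = 0.00676). The removal of these libraries gave 3 and 6 members called, beside 3712 of 19981 and 9349 of 20129 genes. With the GC trend removed, beside 1799 of 18952 genes, Socs3 was called at -1.37 (edgeR adjusted p = 0.0295), and Socs6 stood at 0.016 and Socs4 at 0.73. Socs3 was called at -1.14 without knockout total replicate 1 (edgeR adjusted p = 0.0128). Socs5 was called at -1.03 without replicate 1 (edgeR adjusted p = 0.0126) and at -0.79 without replicate 2 (edgeR adjusted p = 0.0169). Without replicate 2, Socs6 (-1.34), Socs1 (2.11), Cish (1.60) and Socs7 (1.06) were called too.

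**Figure D4:**
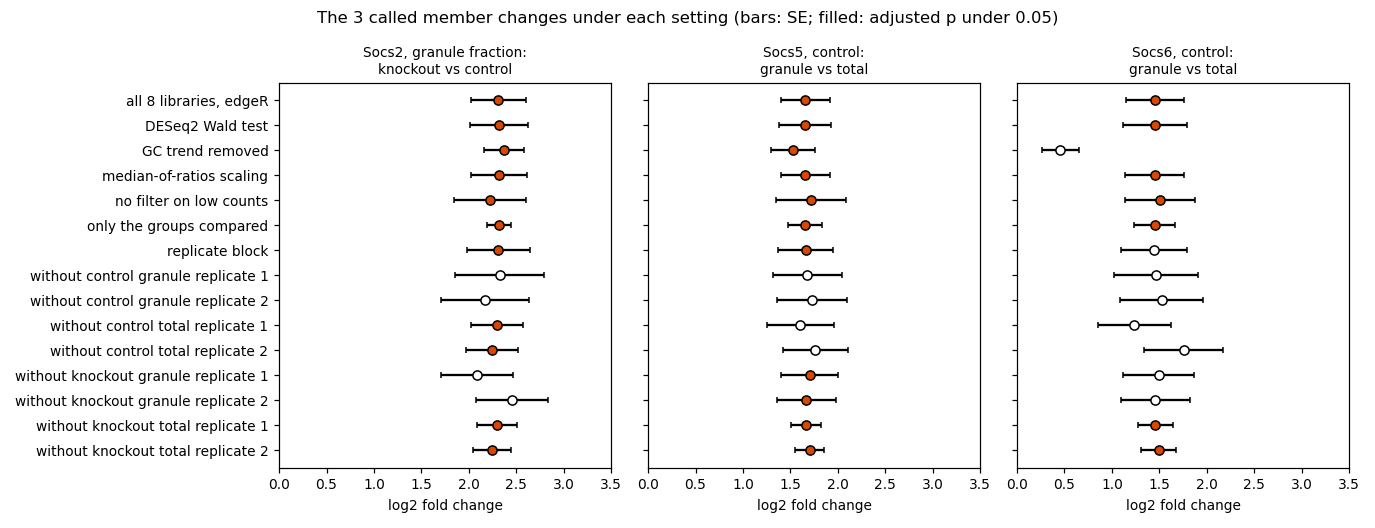
Log2 difference (x axis) of the 3 called member differences, 1 panel each, under the analysis as reported and under each alternative (y axis), with bars of 1 standard error and filled points for adjusted p under 0.05. Socs2 stays between 2.09 and 2.45 in knockout against control granule RNA, while Socs6 in control granule against control total RNA falls to 0.46 once the GC trend is removed.

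The 8 transcripts differed in features that the choice of genes did not use. By the longest coding transcript, Socs7 (7015 bases), Socs4 (6877), Socs6 (6036) and Socs5 (4648) were longer than the median of 3028.5 bases over tested protein-coding genes, and Socs1 (2908), Cish (2850), Socs3 (2552) and Socs2 (2222) were shorter. The split was the same as that between the receptor tyrosine kinase-linked and the cytokine-induced members. The 3′ UTR of Socs4 (5182 bases) held 17 ATTTA pentamers, letters of AU-rich elements that shorten the life of many cytokine-response mRNAs. That was more than in 98.6% of 15234 genes with a 3′ UTR sequence, whose median was 1. Socs6 held 10, Socs7 held 5, Socs5 and Socs3 held 4 each, Cish held 3, Socs2 held 2 and Socs1 none. Per kilobase of 3′ UTR, Socs4 held 3.28, more than in 83.6% of those genes, whose median was 1.22. On that scale Cish held 2.76, Socs3 2.71, Socs6 2.49, Socs2 1.72, Socs5 1.54 and Socs7 0.965. The coding sequence was 597 bases in Socs2 and 1740 bases in Socs7, the shortest and the longest.

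The positions of the other members are also those of GRCm38. Socs1 is at 10782240 to 10785536 on chromosome 16, Socs3 at 117966079 to 117970047 and Socs7 at 97362551 to 97398542 on chromosome 11, and Socs4 at 47276931 to 47296102 on chromosome 14. Cish is at 107296026 to 107302784 on chromosome 9, and Socs6 at 88665224 to 88927481 on chromosome 18. Socs1, Socs3 and Socs4 are annotated with 2 exons in that transcript and Socs7 with 10. No exon of a member other than Cish overlapped another annotated gene.

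The genes whose levels moved most like those of the called members were taken from 9971 genes averaging 5 CPM or more, by Pearson correlation of log2 CPM over the 8 libraries, which share depth and group structure with each other. For Socs2 these were Klf4 (r = 0.982), Aebp1 (0.978) and Mmp10 (0.977), a transcription factor, a matrix-associated protein and a matrix metalloproteinase. For Socs5 they were Sgk1 (r = 0.995), Tbx3 (0.986) and Spry4 (0.985), a kinase, a transcription factor and a growth factor signalling inhibitor. For Socs6 they were Ttbk2 (r = 0.996), Prkg2 (0.995) and Eif1a (0.994), kinases and a translation initiation factor.

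The rest of the pathway was described from 9 lists with 110 genes, all tested. In control granule against control total RNA, 0 of 8 ubiquitin ligase partners were called (3 at an unadjusted p under 0.05 in edgeR, 2 by DESeq2), and of 15 other SOCS box genes Wsb1 rose (2.19, SE 0.430). Of 13 ligands 1 fell, Ifnb1, with 33 and 56 counts in total and 2 and 2 in granule RNA, a ratio of 0.0333 (95% exact interval 0.00888 to 0.0883, counting error only). Of 23 receptors Ghr, the growth hormone receptor that Socs2 restrains, rose (1.90, SE 0.430), and Cntfr (-2.02) and Il2rg (-1.08, 30.5% of its exonic bases shared with another gene) fell. None of 4 JAK genes was called (1 at an unadjusted p under 0.05 in edgeR, 0 by DESeq2). Of all 18952 genes, 5683 had an unadjusted p under 0.05 and DESeq2 called 4032. At the adjusted threshold edgeR called 10.1% of them (5.89% higher, 4.17% lower).

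Several STAT target genes were called lower in control granule RNA, as were 4.17% of all tested genes. Among the STAT genes Stat2 fell (-2.99, SE 0.254), and of 11 other inhibitors Usp18, which blocks the interferon receptor, fell (-4.88, SE 0.393). Of 19 STAT target genes, 7 fell, among them Irf9 (-3.23) and Cebpd (-2.75, 15.003% of its exonic bases shared), and 2 rose, Ccnd1 (1.62, 23.4% shared) and Mcl1 (1.34). Of 10 growth factor receptors and adaptors Met rose (2.29) and Kit fell, with 18 and 29 counts in total and 4 and 1 in granule RNA, a ratio of 0.0788 (95% exact interval 0.0245 to 0.197). The median of the STAT targets was -0.89 and that of the SOCS members 0.90 in this comparison.

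In knockout granule against knockout total RNA, 17.6% of all tested genes were called (9.17% higher, 8.47% lower). Rnf7, a RING partner of cullin 5, fell (-1.32, 1 of 8), as did Asb13 (-1.42, 1 of 15). The 2 ligands that fell were Ifnb1 (-3.25, SE 0.589) and Csf2 (-3.13, SE 0.487, 12% of its exonic bases shared). Both were low in knockout granule RNA, Ifnb1 at 0.155 and 0.0814 CPM and Csf2 at 0.118 and 0.122 CPM. In knockout total RNA Ifnb1 stood at 0.647 and 1.63 CPM and Csf2 at 1.34 and 0.779 CPM. Of the 23 receptors 1 rose, Prlr (2.33), and 4 fell, Osmr (-2.37) and Cntfr (-2.01) by the most. Prlr and Cntfr were low too. Prlr stood at 0.171 and 0.260 CPM in knockout total and 0.865 and 1.30 in knockout granule RNA. Cntfr stood at 0.557 and 0.530 CPM in knockout total and 0.155 and 0.112 in knockout granule RNA. None of 4 JAK genes was called, also at an unadjusted p under 0.05 in edgeR or by DESeq2. Stat2 (-2.06) fell, as did Usp18 (-2.03), while the phosphatase gene Ptpn1 rose (1.11). Pdgfrb (1.65) and Igf1r (1.37) rose. Of the STAT targets 5 fell, led by Lcn2 (-5.86) and Gbp2 (-4.08), and 2 rose, Igf1 (2.61) and Junb (2.005). The knockout total replicates of several of these genes lay far apart. Junb stood there at 82.5 and 338 CPM, Osmr at 289 and 76.9, Gbp2 at 550 and 178 and Rnf7 at 223 and 101. The knockout granule values were 1001 and 686 CPM for Junb, 40.3 and 30.5 for Osmr, 23.0 and 19.9 for Gbp2 and 67.4 and 62.0 for Rnf7.

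Between knockout and control granule RNA, 9 of the 110 genes of the other lists were called higher in knockout cells and 1 lower. Over all tested genes, 9.45% were called (5.79% higher, 3.66% lower). The ligands Il6 (2.40, SE 0.517) and Il15 (1.45, SE 0.364) rose, 2 of 13. Il6 stood at 0.233 and 0.343 CPM in control and 2.05 and 1.01 CPM in knockout granule RNA. Stat2 rose (2.53, SE 0.249, 1 of 7), from 21.2 and 20.2 CPM to 119.4 and 119.03 CPM. Usp18 (3.49, SE 0.368, 1 of 11) and Pdgfrb (1.45, SE 0.332, 1 of 10) rose too. Of the 19 STAT targets 4 rose, Irf9 (2.36) and Ccl2 (2.24) by the most, and Ccnd1 fell (-2.32). The receptors had 0 of 23 called (8 at an unadjusted p under 0.05 in edgeR, 2 by DESeq2), and 18 were positive with a median of 0.69 against 0.08 over all genes. Of all 18952 genes, 5291 had an unadjusted p under 0.05 here and DESeq2 called 3381. The JAK genes had 0 of 4 (0 and 0), the ubiquitin ligase partners 0 of 8 (0 and 0) and the other SOCS box genes 0 of 15 (4 and 3) called.

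**Figure D5:**
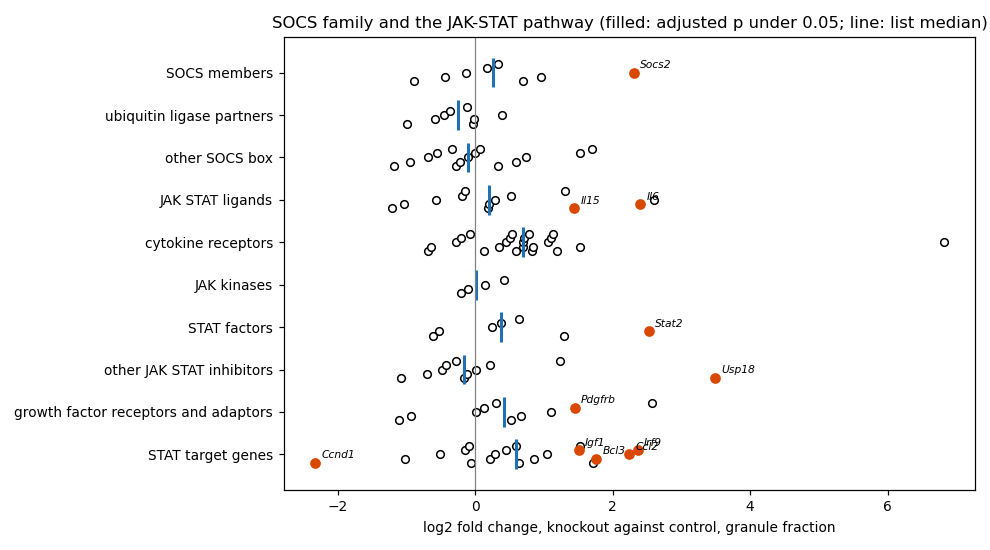
Log2 difference between knockout and control granule RNA (x axis) of each gene of the SOCS family and of the 9 pathway lists (y axis), with a point per gene, a line at each list's median and filled points for adjusted p under 0.05. Socs2 at 2.31 is the filled point of its family, and Usp18 at 3.49 and Stat2 at 2.53 are among the filled points of the other lists.

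In total RNA, Stat2 (1.59, SE 0.241, 1 of 7) and the STAT target Lcn2 (4.72, SE 0.392, 1 of 19) rose in knockout cells. No gene of the other 7 lists was called. At an unadjusted p under 0.05 in edgeR these had 2 ubiquitin ligase partners, 4 other SOCS box genes, 4 ligands, 6 receptors, 2 JAK genes, 5 inhibitors and 3 growth factor receptors or adaptors, and by DESeq2 0, 3, 3, 4, 1, 4 and 0 in that order. Over all 18952 genes the counts were 4705 and 2437, and edgeR called 0.412% at the adjusted threshold. For the difference between genotypes in the granule to total ratio, the STAT targets Lcn2 (-4.27) and Ccnd1 (-2.44) were called, 2 of 19, and no gene of the other 8 lists was called. Those had, in edgeR at an unadjusted p under 0.05, 3 ubiquitin ligase partners, 4 other SOCS box genes, 1 ligand, 2 receptors, 1 JAK gene, 1 STAT gene, 3 inhibitors and 4 growth factor receptors or adaptors, and by DESeq2 1, 3, 1, 2, 1, 0, 2 and 4 in that order. Over all 18952 genes the counts were 4898 and 2724, and edgeR called 0.517% at the adjusted threshold.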

How the data were processed

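Poly(A) RNA of 8 libraries was analysed from the raw counts per Ensembl gene deposited by the authors. Per the submitters' processing notes, GRCm38 (mm10), STAR and DESeq2 were named. The counting program, strand setting and annotation release are not given in the sources used here. Counts were fitted in R 4.3.3 with the quasi-likelihood test of edgeR 4.0.16 (TMM scaling, expression filter, robust, a mean for each of 4 groups, 4 residual degrees of freedom), with Benjamini-Hochberg adjustment over 18952 genes, and the procedure was tested on simulated data. The 5 contrasts share groups, so their values are not independent. Of 39017 identifiers, 37607 matched GENCODE M21. All 40 member tests are named, 3 of which were called, and from each list up to 2 called genes per direction and contrast, except 1 gene that is not reported here. Intervals cover counting error only. The members and lists were chosen with earlier results of these data known. Alternatives were median-of-ratios scaling, DESeq2 1.42.0, no filter, a replicate block, GC trend removal (lowess, span 0.3), separate fits of the groups compared and fits without each library in turn.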

Additional observations from a re-analysis of the deposited data

How the results depend on the processing

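Counts of members called were 2, 0, 0, 1 and 0 for control granule against total, knockout granule against total, knockout against control in total RNA, the same in granule RNA, and the difference between genotypes. DESeq2 gave 4, 3, 2, 1 and 1 (4032, 5091, 2437, 3381 and 2724 of all 18952 genes), GC trend removal 3, 4, 0, 3 and 2 (3818, 6164, 771, 4547 and 1799 of 18952), and no filter 5, 1, 1, 1 and 0 (4001, 5161, 3407, 3404 and 3476 of 30351). Fitting only the groups compared gave 5, 0, 0 and 6 (7354 of 17364 genes, 0, 0 and 10359 of 18066), with no value for the difference. Over the 8 fits that each left out a library, the counts of members called and of all genes called both varied widely. In these fits a group left with 1 library was assumed to vary like the others.

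The replicate numbers of the labels name no shared embryo or day, and replicate differences of the 4 groups correlated between -0.602 and 0.19. With the number as a replicate block 1, 0, 0, 1 and 0 members were called (581, 1898, 0, 670 and 0 of all genes, against 1906, 3343, 78, 1791 and 98). Socs6 in control granule against total lost its call under the block (edgeR adjusted p = 0.0678). A crossed pairing, added after seeing the data, called 3, 0 and 0 members (2354, 3168 and 112 genes) in the first 3 comparisons.

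Median-of-ratios scaling changed no call or direction in the 40 member tests. Directions changed in 18 cases, none of which had been called, and the cause was not tested. With the GC trend removed, Socs1 became 0.071 and Socs3 0.23 in total RNA, and the difference between genotypes became -0.47 for Socs1, 0.73 for Socs4 and 0.016 for Socs6. The other changes came from leaving out a library. In knockout granule against total RNA, Socs1 then ran from -1.88 to 0.98. In total RNA, Socs1 ran from -2.32 to 0.56, Socs3 from -1.08 to 0.24 and Cish from -0.71 to 1.06. In granule RNA, Socs1 ran from -0.35 to 0.0033. The difference between genotypes ran from -0.71 to 2.11 for Socs1, -1.14 to 0.13 for Socs3, -0.75 to 0.23 for Socs4 and -0.12 to 1.60 for Cish.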
